A study of Mus musculus with 4 samples.

Results

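Fc gamma receptors bind the constant part of immunoglobulin G on the surface of blood and tissue cells. The mouse family was taken as the listed symbols Fcgr1, Fcgr3, Fcgr4, Fcgr2b and Fcer1g, 5 of the 32285 genes in the count tables, and all 5 were found there. They were followed across cell classes of the lung in 4 single-cell libraries. All libraries came from whole lungs of wild-type male C57BL/6 mice aged 6 to 7 weeks. The LPS+RT library came from mice that received 200 µg of bacterial lipopolysaccharide (LPS) through the trachea and 1 Gy of X-rays to the thorax on the following day. The LPS library received the same LPS with no X-rays, the PBS+RT library received saline and 1 Gy, and the PBS library received saline with no X-rays. Cells were collected 48 hours after the injection, which was 24 hours after irradiation where it was given. Each group is 1 library, and the number of mice behind a library is not given, so no difference between groups has a replicate check and no p-value is reported.

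An Fc gamma receptor links an antibody-coated particle to the cell that takes it up. The activating receptors encoded by Fcgr1, Fcgr3 and Fcgr4 signal through an associated chain, the common gamma chain encoded by Fcer1g, which carries an activation motif and starts Syk-dependent phagocytosis and cytokine release. Fcgr2b encodes the inhibitory receptor, which carries its own inhibitory motif and recruits the phosphatase encoded by Inpp5d. In the lung these receptors are known from alveolar macrophages, monocytes and neutrophils, and Fcgr2b is the Fc gamma receptor of B cells.

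Fcgr3, Fcgr4, Fcgr2b and Fcer1g lie near each other on mouse chromosome 1, and Fcgr1 lies on chromosome 3. On build mm10 with GENCODE M21, Fcgr1 spans chr3:96282909-96293969 on the minus strand. Fcgr2b spans chr1:170958617-170976547 on the minus strand and Fcgr4 spans chr1:171018920-171029761 on the plus strand. Fcgr3 spans chr1:171051174-171064935 and Fcer1g spans chr1:171229572-171234365, both on the minus strand. The promoters of Fcgr1 and Fcgr4, which were lower in neutrophils and inflammatory macrophages of the LPS+RT library than of the LPS library, and of Fcgr2b, which differed little there, are shown for the 250 bases before each RefSeq start on GRCm38.p6. They are chr3:96293970-96294219 on the minus strand for Fcgr1, chr1:171018676-171018925 on the plus strand for Fcgr4, and chr1:170976072-170976321 on the minus strand for Fcgr2b. Capitals mark matches to 3 motifs searched on both strands: TTCNNNGAA, the letters of a gamma-activated site, GAAA followed after 2 bases by another GAAA, the core of an interferon-stimulated response element, and GAGGAA or its reverse complement TTCCTC, a core bound by the myeloid factor PU.1.
Fcgr1: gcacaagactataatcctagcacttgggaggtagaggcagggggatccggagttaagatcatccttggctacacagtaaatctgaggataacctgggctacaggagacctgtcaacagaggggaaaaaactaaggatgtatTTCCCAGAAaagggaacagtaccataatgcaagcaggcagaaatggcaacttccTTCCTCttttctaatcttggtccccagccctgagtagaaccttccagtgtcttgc
Fcgr4: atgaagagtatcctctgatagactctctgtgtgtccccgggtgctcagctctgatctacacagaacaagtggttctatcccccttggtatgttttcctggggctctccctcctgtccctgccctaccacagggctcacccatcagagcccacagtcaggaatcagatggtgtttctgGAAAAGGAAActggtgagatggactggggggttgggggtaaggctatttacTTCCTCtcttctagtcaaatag
Fcgr2b: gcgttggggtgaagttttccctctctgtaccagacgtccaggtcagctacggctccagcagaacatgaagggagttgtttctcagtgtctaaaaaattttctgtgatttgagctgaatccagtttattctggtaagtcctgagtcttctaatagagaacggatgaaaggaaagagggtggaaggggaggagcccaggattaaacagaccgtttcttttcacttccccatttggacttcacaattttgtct

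The Fcgr1 window held TTCCCAGAA from 109 to 101 bases before the start and TTCCTC from 55 to 50 bases before it. The Fcgr4 window held GAAAAGGAAA from 73 to 64 bases before the start and TTCCTC from 22 to 17 bases before it. The Fcgr3 window held only TTCCTC, from 6 bases before the start up to it, and none of the motifs was found in the Fcgr2b and Fcer1g windows. Of 27025 promoters of this length, 7.18% held TTCNNNGAA, 3.04% held the paired GAAA and 23.1% held GAGGAA. A match describes letters in this window and is not a measured binding site.

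The 4 tables held 6708 to 10996 barcodes and 65995600 to 80013887 unique molecular identifiers (UMIs, each a counted transcript molecule) per library. After filtering, 9610 cells remained in LPS+RT, 8997 in LPS, 6208 in PBS+RT and 8882 in PBS, with median depths of 4255, 5570, 8540.5 and 4265 UMIs. Classes were rebuilt from marker genes on clusters made without the 5 genes, and a class name below means cells like that type. Neutrophils numbered 896 in LPS+RT, 3562 in LPS, 115 in PBS+RT and 78 in PBS, and all 8 of their markers were found in at least 10% of the cells of each library. The submitters enriched mononuclear cells on a Ficoll gradient, a step that can set the share of neutrophils. Levels are given as CPM, a gene's UMIs divided by all UMIs of that class in that library and scaled to 1000000. S100a8, an abundant neutrophil transcript, was also counted in T cells at 17.7 CPM in LPS+RT, 59.2 in LPS, 12.0 in PBS+RT and 14.6 in PBS, as a measure of neutrophil RNA in other cells of each library. Sftpc, the leading gene of an alveolar type 2 cluster, had 44.1 CPM in T cells of LPS+RT, 19.7 in LPS, 30.5 in PBS+RT and 56.7 in PBS. S100a8 and Sftpc thus ordered the libraries differently. T cells were near the low end for S100a8 in LPS. There B cells had 183 CPM, fibroblasts 371 and platelets 512, and natural killer cells had 53.5. Levels carry exact Poisson 95% intervals, which, like all intervals here, cover counting error only. UMIs count transcript ends and are not scaled for length, so levels are compared between classes and libraries and not between genes.

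The family's transcripts came mainly from myeloid cells, and the cells that supplied them differed between the libraries. Myeloid classes held 83.4% to 98.2% of the UMIs of each gene in each library. In LPS+RT, interstitial macrophages supplied 37.4% of Fcgr1 and 30.5% of Fcgr2b, and alveolar macrophages, the resident phagocytes of the air spaces, supplied the most of the other members (39.4% to 64.8%). In LPS, neutrophils supplied the most Fcgr3, Fcgr4 and Fcer1g, with 42.5%, 43.4% and 41.5% of the UMIs, and inflammatory macrophages supplied 50.6% of Fcgr1 and 50.3% of Fcgr2b. In PBS+RT and PBS, alveolar macrophages were the largest source of all 5 genes, from 50.1% of Fcgr2b to 80.7% of Fcgr4 in PBS+RT and from 47.6% of Fcgr2b to 69.6% of Fcgr3 in PBS.

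**Figure D1:**
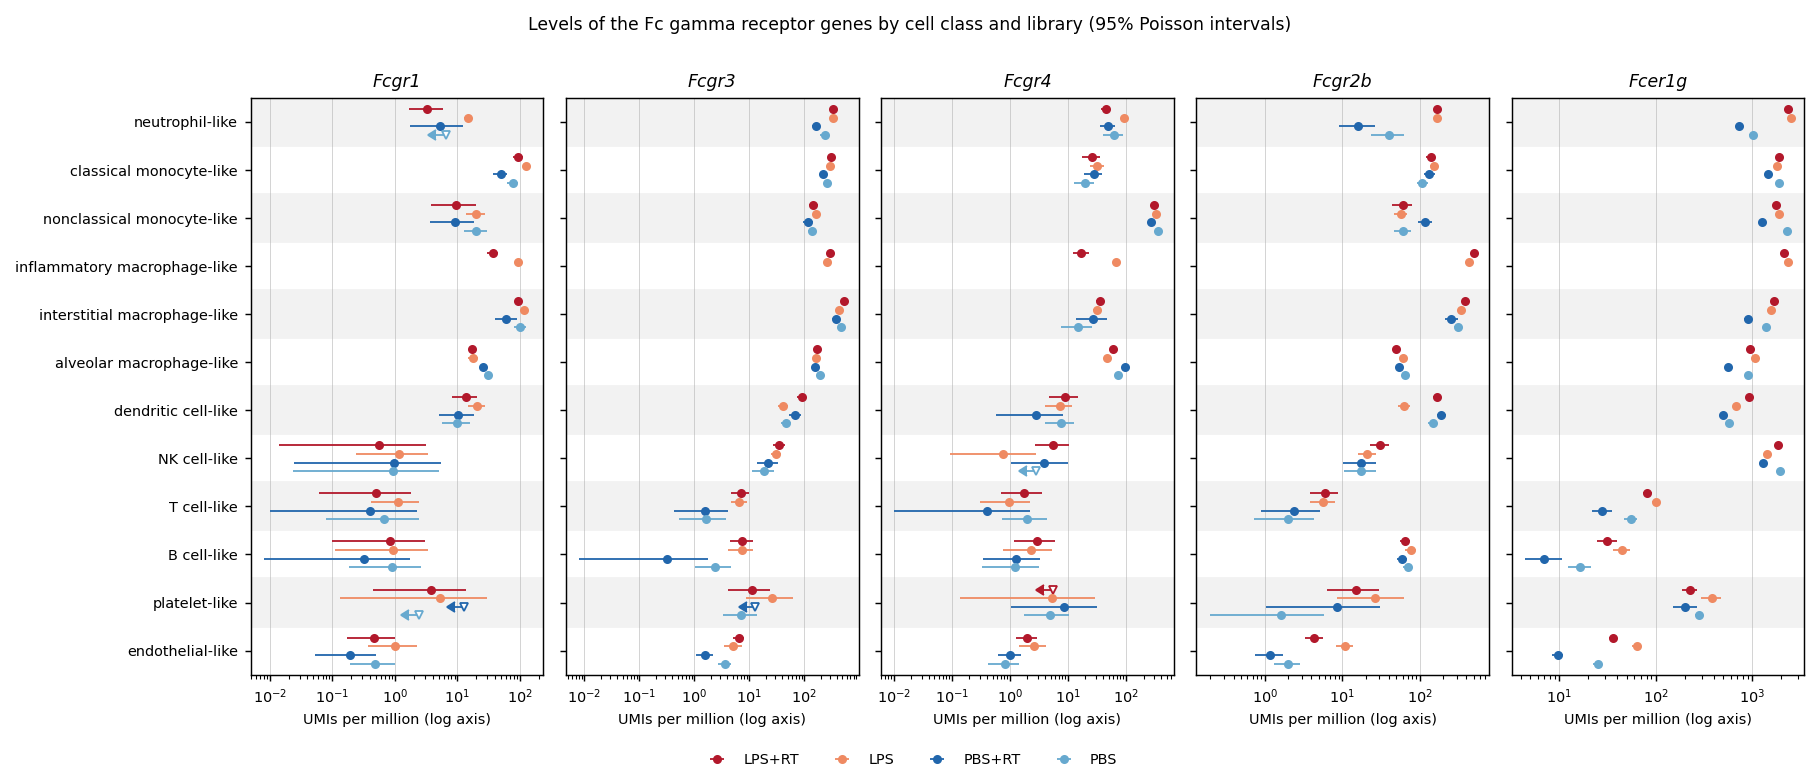
CPM of the 5 genes (log axis, 1 panel per gene) in each cell class, with 1 point per library in the order LPS+RT, LPS, PBS+RT and PBS and exact Poisson 95% intervals; a triangle marks a pool with no UMI at its limit of 3 counts. Fcgr4 was highest in nonclassical monocytes (271 to 357 CPM) and Fcgr2b was highest in inflammatory macrophages (437 and 500 CPM), while T cells and endothelial cells lay near the left of each panel.

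Fcgr1 encodes the high-affinity activating receptor, known as a surface marker of monocyte-derived cells and macrophages. Its mean level over the libraries was highest in interstitial macrophages (complement C1q-positive tissue macrophages), with 93.5 CPM in LPS+RT, 114 in LPS, 60.5 in PBS+RT and 99.8 in PBS. Classical monocytes, the Ly6c2-positive blood monocytes, had 93.0 CPM in LPS+RT, 127 in LPS, 48.9 in PBS+RT and 76.3 in PBS. Their ranges over libraries overlapped, classical monocytes were the higher of the 2 in LPS, and PBS+RT was the lowest library in both. Inflammatory macrophages, defined by Nos2, Arg1 and Spp1 and nearly absent without LPS (109 cells in LPS+RT, 555 in LPS, 1 in PBS+RT and 0 in PBS), had 36.9 CPM in LPS+RT and 92.8 CPM in LPS. Alveolar macrophages had 17.4 CPM in LPS+RT, 18 in LPS, 26.0 in PBS+RT and 30.7 in PBS, below the range of those 3 classes. In neutrophils Fcgr1 was near the floor except after LPS alone, with 11 UMIs (3.31 CPM, 1.65 to 5.92) in LPS+RT, 270 UMIs (14.6 CPM, 12.9 to 16.4) in LPS, 5 UMIs (5.34 CPM, 1.73 to 12.5) in PBS+RT and 0 UMIs in PBS, where 3 counts would be 6.58 CPM. T cells, which should lack Fcgr1, had 0.402 to 1.13 CPM.

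Fcgr3 encodes a low-affinity activating receptor, the mouse CD16 of phagocytes and natural killer (NK) cells. Interstitial macrophages stood above every other class with 542 CPM in LPS+RT, 439 in LPS, 383 in PBS+RT and 478 in PBS. Neutrophils had 340 CPM in LPS+RT and 342 in LPS, against 162 in PBS+RT and 237 in PBS. Over all neutrophils together, the values of both LPS-treated libraries were close to each other and above both saline libraries. Classical monocytes (222 to 312 CPM) and inflammatory macrophages (259 and 297 CPM) overlapped with them, alveolar macrophages had 161 to 196 CPM and nonclassical monocytes 117 to 165 CPM. NK cells had 35.7 CPM in LPS+RT, 30.9 in LPS, 22.3 in PBS+RT and 18.4 in PBS, against 1.61 to 6.98 CPM in T cells.

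Fcgr4 encodes the activating receptor for IgG2a and IgG2b, known from nonclassical monocytes and neutrophils. Nonclassical monocytes, the Treml4- and Ace-positive patrolling cells, had 303 CPM in LPS+RT, 332 in LPS, 271 in PBS+RT and 357 in PBS, apart from all other classes. Alveolar macrophages came next by the mean over libraries, with 60.3 CPM in LPS+RT, 46.9 in LPS, 94.9 in PBS+RT and 72.5 in PBS, and here both saline libraries were above both LPS-treated libraries. Neutrophils had 44.5 CPM (148 UMIs, 37.7 to 52.3) in LPS+RT, 91.4 (1692 UMIs, 87.1 to 95.9) in LPS, 49.1 (46 UMIs, 36.0 to 65.5) in PBS+RT and 61.5 (28 UMIs, 40.8 to 88.8) in PBS. The LPS library alone stood higher, although its interval reached into that of PBS, and in LPS neutrophils and inflammatory macrophages (66.7 CPM) were above alveolar macrophages. After each cell was thinned to 2000 UMIs, Fcgr4 was found in 38.9% of nonclassical monocytes in LPS+RT, 47.4% in LPS, 42.3% in PBS+RT and 48.8% in PBS, with 3, 3, 4 and 6 shallower cells left out. The unthinned shares were 75.3%, 85.5%, 76.0% and 80.6%. In thinned T cells the share was at most 0.610%. S100a8 in the nonclassical monocytes was 61.3 CPM in LPS+RT, 1458 in LPS, 80.5 in PBS+RT and 9.61 in PBS, so this class in the LPS library also held RNA of neutrophils, whose part in the levels was not tested.

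Fcgr2b encodes the inhibitory receptor, and among the classes measured its widest spread between libraries was in neutrophils. Inflammatory macrophages had 500 CPM in LPS+RT and 437 in LPS. Interstitial macrophages had 385 CPM in LPS+RT, 345 in LPS, 255 in PBS+RT and 313 in PBS. Neutrophils had 169 CPM (560 UMIs, 155 to 183) in LPS+RT and 166 (3068 UMIs, 160 to 172) in LPS, against 16.0 (15 UMIs, 8.97 to 26.4) in PBS+RT and 39.5 (18 UMIs, 23.4 to 62.4) in PBS. The intervals of both LPS-treated libraries lay far above those of both saline libraries. In neutrophils thinned to 2000 UMIs, 24.8% had an Fcgr2b UMI in LPS+RT, 25.9% in LPS, 2.25% in PBS+RT and 7.94% in PBS, with 252, 631, 26 and 15 shallower cells left out. The unthinned shares were 30.5%, 41.8%, 10.4% and 16.7% at median depths of 3772.5, 5066, 6020 and 4878 UMIs. Thinned T cells, which should lack the gene, gave 1.02% in LPS+RT, 1.92% in LPS, 0.840% (0.102 to 3.00) in PBS+RT and 0.601% in PBS. The thinned share in PBS+RT neutrophils came from 2 of 89 cells (0.273 to 7.88) and overlapped with that of the T cells, while the level in all PBS+RT neutrophils lay above the 2.41 CPM (0.884 to 5.24) of PBS+RT T cells. B cells, where Fcgr2b dampens the antigen receptor, had 64.7 CPM in LPS+RT, 76.5 in LPS, 59.9 in PBS+RT and 70.0 in PBS. A gene on the other strand that overlaps Fcgr2b, Gm38204, had 10 to 102 UMIs per library against 1752 to 12608 for Fcgr2b.

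Fcer1g, the shared signalling chain, was found in every myeloid class and in NK cells, where it also pairs with other receptors. Its level in neutrophils was 2328 CPM in LPS+RT and 2496 in LPS, against 732 in PBS+RT and 1018 in PBS. NK cells had 1834 CPM in LPS+RT, 1431 in LPS, 1284 in PBS+RT and 1951 in PBS, and the ranges of these and of the monocyte, inflammatory and interstitial macrophage classes overlapped. Alveolar macrophages had 935 CPM in LPS+RT, 1065 in LPS, 559 in PBS+RT and 899 in PBS, with PBS+RT lowest. Platelets, where the chain pairs with the collagen receptor GPVI, had 226 CPM in LPS+RT, 379 in LPS, 202 in PBS+RT and 280 in PBS. In T cells the same gene had 81.8 CPM in LPS+RT, 99.2 in LPS, 27.7 in PBS+RT and 54.7 in PBS.

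Over 47 pools of library and class with at least 100 cells, the members' levels went together to different degrees, given as Pearson correlations of log2(CPM + 10) that describe pools sharing libraries and depth. Fcer1g and Fcgr3 were most alike (r = 0.869) and Fcgr2b and Fcgr4 least (r = 0.596). Among 8387 genes, the profile nearest to Fcer1g was that of Tyrobp (r = 0.966), which encodes the sister adaptor DAP12. The nearest to Fcgr1 were Ms4a6d (r = 0.944), Msr1, a scavenger receptor (r = 0.919), and Trem2, a lipid-sensing receptor of macrophages (r = 0.903). Fcgr3 was nearest to Cd300c2 (r = 0.945), Mpeg1 (r = 0.942) and Pilra (r = 0.941), and Fcgr4 to C130050O18Rik (r = 0.927), Treml4 (r = 0.926), which is also a marker of the nonclassical class, and Klra2 (r = 0.923). The nearest to Fcgr2b, Rilpl2 (r = 0.882), Cyba (r = 0.855) and Sgpl1 (r = 0.845), were less alike than the leading genes of the other members.

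The LPS library was set against the PBS library to ask what LPS alone was accompanied by. A member and class were compared where both libraries had at least 100 cells and the member reached 10% of its highest class, and differences of at least 1.5-fold were counted. None of 13 such pairs was at least 1.5-fold higher in LPS, where 13.3% of all gene and class pairs were, and 2 of 13 were lower, against 15.1% of all. Both lower pairs were in alveolar macrophages. Fcgr1 was 18 CPM in LPS against 30.7 CPM in PBS, 1.71-fold lower (1.40 to 2.10), and Fcgr4 was 46.9 CPM in LPS against 72.5 CPM in PBS, 1.54-fold lower (1.36 to 1.75). In alveolar macrophages 12.8% of all genes were lower by that margin. Most alveolar macrophages of LPS came from a cluster led by Ctsk and Marco (176 of 183 cells) and most of those of PBS from a cluster led by Fabp1 (543 of 625 cells). Within the Ctsk cluster Fcgr4 was 45.9 CPM in LPS against 69.1 CPM in PBS (ratio 0.664, 0.552 to 0.80), while Fcgr1 was 17.5 CPM in LPS against 20.1 CPM in PBS (ratio 0.870, 0.625 to 1.22). With at most 5% mitochondrial UMIs the class-wide ratios were 0.722 for Fcgr1 and 0.692 for Fcgr4.

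With at least 40 cells in both libraries, a minimum chosen after the data had been seen, 5 of 29 pairs were higher in LPS, against 17.2% of all pairs, and 3 were lower, against 14.7%. The higher ones included 3 in neutrophils. Neutrophil Fcgr2b was 4.19-fold higher (2.65 to 7.09, or 2.49-fold with each cell given equal weight) and Fcer1g 2.45-fold higher (2.24 to 2.69) in LPS than in PBS. Fcgr1 had 270 UMIs in LPS and 0 in PBS, where 3 counts over the 78 neutrophils would be 6.58 CPM. It was counted as higher because it was 2.21-fold above that limit, a value that is not the end of an interval. Of the 270 UMIs, 131 came from 490 LPS cells of a cluster led by Rsad2, which held no PBS cells. In a cluster led by Retnlg, Fcgr1 had 1 UMI in 184 LPS cells and 0 in 33 PBS cells. Fcgr3 (1.44-fold, 1.19 to 1.76) and Fcgr4 (1.49-fold, 1.03 to 2.24) were within the margin. In neutrophils 41.1% of all 6098 genes were at least 1.5-fold higher, the median log2 ratio of all genes was 0.36, and median-of-ratios scaling used a log2 factor of -0.13, which made Fcgr3 1.58-fold and Fcgr4 1.63-fold higher. The summed level of the 8 neutrophil markers was 33091 CPM in LPS against 140700 CPM in PBS, and its part in these ratios was not tested. In classical monocytes Fcgr1 was 1.66-fold higher (1.30 to 2.12) in LPS, where 17.6% of all genes were higher. In dendritic cells Fcgr1 was 2.09-fold higher (1.17 to 3.92) and Fcgr2b 2.33-fold lower (1.88 to 2.90) in LPS, where 30.2% of all genes were higher and 12.5% lower. When every cell was named by its own marker score the Fcgr2b ratio was 1.08, so its direction turned, and the mix of dendritic cells also differed, with 42 type 2 and 75 migratory cells in LPS against 76 type 2 and 14 migratory cells in PBS. Among the type 2 cells Fcgr1 had 7 UMIs (8.29 CPM, 3.33 to 17.1) in LPS and 17 UMIs (11.4 CPM, 6.64 to 18.3) in PBS. The migratory cells had 35 Fcgr1 UMIs in LPS and 0 in PBS.

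**Figure D2:**
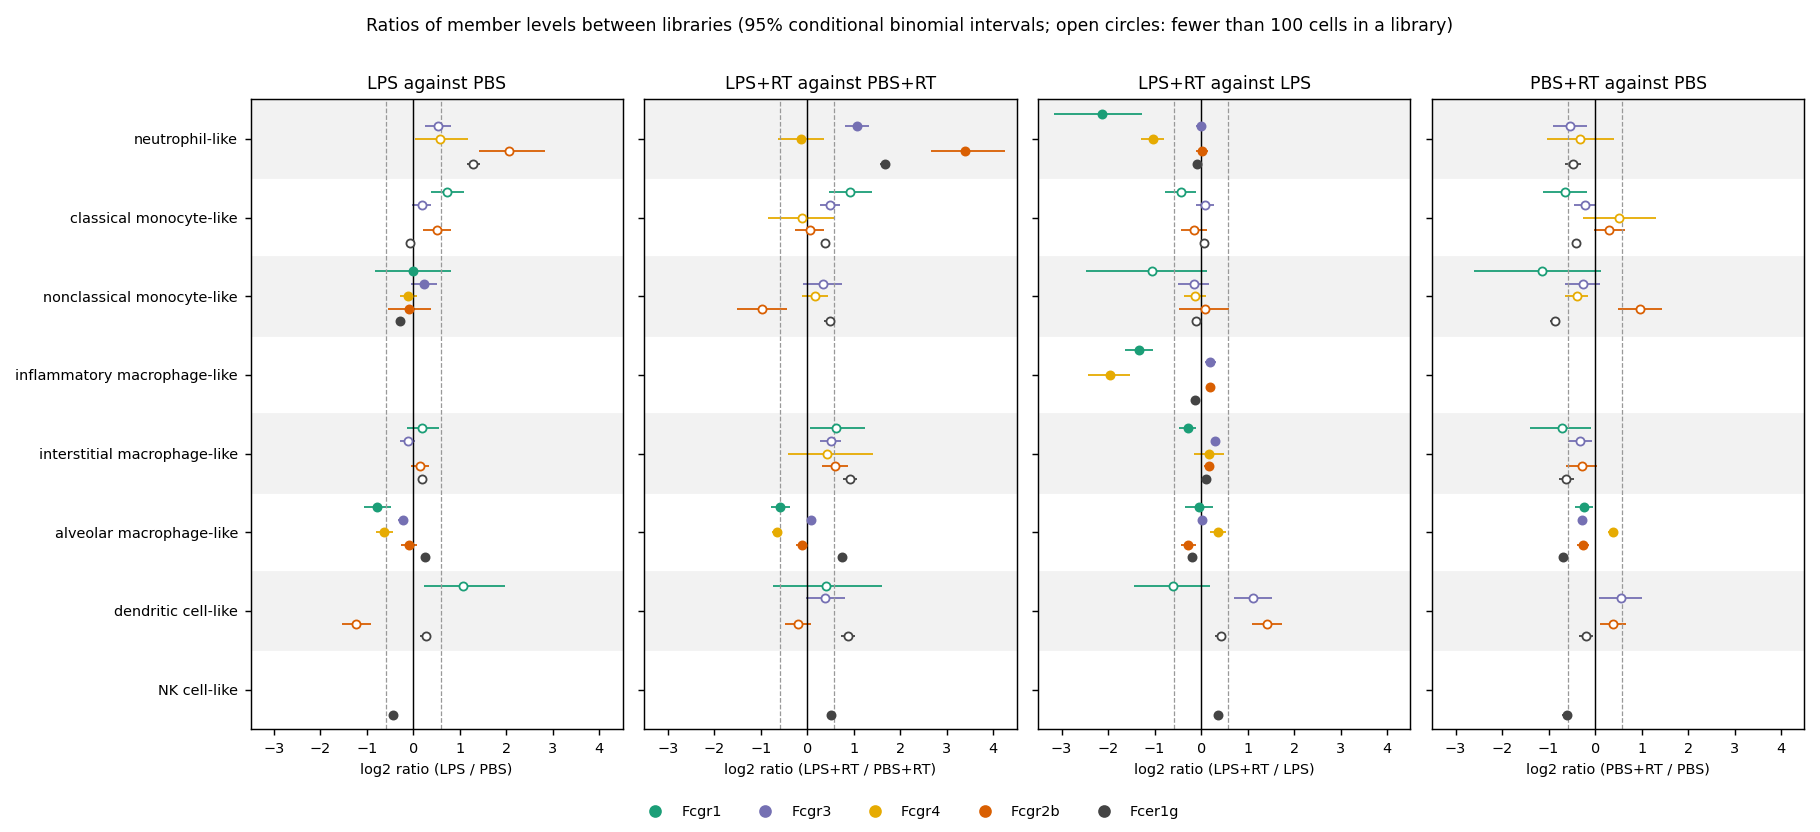
Log2 ratio of CPM (horizontal axis) for each member in each class, 1 panel per comparison, with exact conditional 95% intervals that cover counting error only; dashed lines mark 1.5-fold, open circles mark fewer than 100 cells in a library, and neutrophil Fcgr1 in LPS against PBS is not drawn because PBS had no UMI. Neutrophil Fcgr2b lay furthest to the right in both comparisons of LPS-treated with saline libraries, and Fcgr1 and Fcgr4 of neutrophils and inflammatory macrophages lay left of the dashed line for LPS+RT against LPS.

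The neutrophils were not the same mix of clusters in the libraries, and Fcgr2b differed between those clusters. A cluster led by Retnlg and Stfa2l1 held 76 of 896 neutrophils in LPS+RT and 184 of 3562 in LPS, against 77 of 115 in PBS+RT and 33 of 78 in PBS. Within it Fcgr2b had 3 UMIs (7.57 CPM, 1.56 to 22.1) in LPS+RT, 14 UMIs (11.6 CPM, 6.37 to 19.5) in LPS, 4 UMIs (7.52 CPM, 2.05 to 19.3) in PBS+RT and 3 UMIs (17.8 CPM, 3.68 to 52.1) in PBS, and all 4 intervals overlapped. The cluster led by Ccl3, Csf3 and Cxcl2, with 195 cells in LPS+RT and 1559 in LPS, had 345 CPM (308 to 386) of Fcgr2b in LPS+RT and 207 CPM (198 to 217) in LPS. In the same cluster 7 PBS cells gave 183 CPM (67.3 to 399), and 1 cell came from PBS+RT. Fcer1g within the Retnlg cluster was 994 CPM (898 to 1097) in LPS+RT and 1423 (1356 to 1492) in LPS, against 718 (648 to 794) in PBS+RT and 797 (667 to 943) in PBS. Its interval in LPS lay above the others, while those of LPS+RT and PBS overlapped. Fcgr3 within the Retnlg cluster was 265 CPM (217 to 321) in LPS+RT and 348 (316 to 383) in LPS. It was 214 (177 to 257) in PBS+RT and 303 (226 to 399) in PBS. The Fcgr3 interval of PBS overlapped with those of both LPS-treated libraries, and that of PBS+RT overlapped with that of LPS+RT.

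The LPS+RT library was set against the PBS+RT library for the same question in irradiated lungs. Of 11 pairs with at least 100 cells, 4 were at least 1.5-fold higher in LPS+RT, against 11.9% of all gene and class pairs, and 1 was lower, against 17.5%. The higher ones were neutrophil Fcgr2b (10.5-fold, 6.32 to 18.9), Fcer1g (3.18-fold, 2.94 to 3.45) and Fcgr3 (2.09-fold, 1.77 to 2.50), and alveolar macrophage Fcer1g (1.67-fold, 1.63 to 1.72). Neutrophil Fcgr4 was 44.5 CPM in LPS+RT and 49.1 CPM in PBS+RT (ratio 0.907, 0.647 to 1.29), but with each cell given equal weight the ratio was 0.495. In neutrophils 35.5% of all genes were higher by the margin and 20.9% lower. The lower pair was alveolar macrophage Fcgr4, 60.3 CPM in LPS+RT and 94.9 CPM in PBS+RT, 1.57-fold lower (1.46 to 1.70), and within the Fabp1 cluster, which held 199 cells of LPS+RT and 654 of PBS+RT, its ratio was 0.775 (0.683 to 0.877). With at least 40 cells, 9 of 29 pairs were higher in LPS+RT, against 13.5% of all pairs, and 2 were lower, against 18.6%. Here Fcgr1 was 1.90-fold higher (1.39 to 2.63) in classical monocytes, and Fcgr1 (1.55-fold, 1.05 to 2.38), Fcgr2b (1.51-fold, 1.25 to 1.84) and Fcer1g (1.89-fold, 1.70 to 2.09) were higher in interstitial macrophages, of which PBS+RT had 42 cells and in which 26.9% of all genes were higher. In that class median-of-ratios scaling moved ratios by -0.41 in log2 factor, which made them larger. Nonclassical monocytes had less Fcgr2b in LPS+RT, 60.0 CPM against 117 CPM in PBS+RT (1.95-fold lower, 1.34 to 2.86), but the ratio was 0.765 when each cell was named by its own marker score.

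The LPS+RT library was set against the LPS library to ask what irradiation after LPS was accompanied by. Of 23 pairs with at least 100 cells none was at least 1.5-fold higher in LPS+RT, against 8.28% of all gene and class pairs, and 5 were lower, against 10.7%. Of these, 4 were Fcgr1 and Fcgr4 in neutrophils and in inflammatory macrophages. Neutrophil Fcgr1 was 3.31 CPM in LPS+RT and 14.6 CPM in LPS, 4.41-fold lower (2.42 to 8.93), and Fcgr4 was 44.5 CPM in LPS+RT and 91.4 CPM in LPS, 2.05-fold lower (1.73 to 2.44). Inflammatory macrophage Fcgr1 was 36.9 CPM (29.8 to 45.2) in LPS+RT and 92.8 CPM (87.9 to 97.9) in LPS, 2.51-fold lower (2.04 to 3.14), and Fcgr4 was 17.1 CPM (12.4 to 23.0) in LPS+RT and 66.7 CPM (62.5 to 71.0) in LPS, 3.91-fold lower (2.88 to 5.43). In both classes the intervals of the libraries were apart for both genes. With equal weight per cell neutrophil Fcgr1 was 2.65-fold lower, and with each cell named by its own marker score inflammatory macrophage Fcgr4 was 2.28-fold lower. Of all genes, 9.45% in neutrophils and 11.4% in inflammatory macrophages were lower by the margin.

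The other members of the family did not differ by that margin in these classes. In inflammatory macrophages Fcgr2b was 500 CPM in LPS+RT and 437 CPM in LPS (ratio 1.14, 1.08 to 1.22), Fcgr3 297 CPM in LPS+RT and 259 CPM in LPS (ratio 1.15, 1.06 to 1.24), and the ratio of Fcer1g was 0.910 (0.884 to 0.936). In neutrophils the ratios were 1.02 (0.928 to 1.11) for Fcgr2b, 0.993 (0.931 to 1.06) for Fcgr3 and 0.933 (0.910 to 0.955) for Fcer1g. After thinning to 2000 UMIs, 0.917% of inflammatory macrophages had an Fcgr4 UMI in LPS+RT and 13.9% in LPS, and 6.42% in LPS+RT and 15% in LPS had an Fcgr1 UMI, with 0 and 2 shallower cells left out. The thinned Fcgr4 share in LPS+RT came from 1 of 109 cells, so its size is imprecise. The unthinned shares were 22.9% in LPS+RT and 46.8% in LPS for Fcgr4, and 31.2% in LPS+RT and 54.2% in LPS for Fcgr1. The fifth lower pair was platelet Fcer1g, 1.68-fold lower (1.23 to 2.27) in LPS+RT, with 101 platelets in LPS, where 7.9% of all genes were lower by the margin. Its ratio was 0.713 with at most 5% mitochondrial UMIs, 0.678 with equal weight per cell and 0.388 by own marker score. S100a8 in platelets was 82.0 CPM in LPS+RT and 512 CPM in LPS. The platelets of LPS thus held more RNA of neutrophils, whose part in the ratio was not tested. With at least 40 cells, 2 of 36 pairs were higher in LPS+RT, against 7.98% of all pairs, and 7 were lower, against 12.9%.

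In interstitial and alveolar macrophages the ratios of Fcgr1 and Fcgr4 were within the 1.5-fold margin. In interstitial macrophages the ratio of LPS+RT to LPS was 0.818 (0.719 to 0.930) for Fcgr1, 1.12 (0.897 to 1.41) for Fcgr4 and 1.23 (1.16 to 1.31) for Fcgr3. In alveolar macrophages it was 0.967 (0.787 to 1.19) for Fcgr1 and 1.28 (1.14 to 1.46) for Fcgr4. Classical monocytes, with 97 cells in LPS+RT and 110 in LPS, had 93.0 CPM of Fcgr1 in LPS+RT and 127 CPM in LPS, 1.36-fold lower (1.09 to 1.71). Fcgr4 of nonclassical monocytes, the class where it is highest, had a ratio of 0.913 (0.778 to 1.07). Differences between classes in these ratios were not tested.

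The mix of cells within a class also differed where Fcgr1 and Fcgr4 were lower. A neutrophil cluster led by the interferon-induced genes Rsad2, Slfn4, Cxcl10 and Gbp2 held 9 cells in LPS+RT and 490 in LPS, and none in either saline library. Fcgr1 had 0 UMIs in those 9 LPS+RT cells and 43.4 CPM (36.3 to 51.5) in LPS, and Fcgr4 had 217 CPM (99.0 to 411) in LPS+RT and 240 CPM (223 to 258) in LPS. Without this cluster, an alternative chosen after the data had been seen, Fcgr1 was 3.35 CPM in LPS+RT and 8.97 CPM in LPS (2.68-fold lower, 1.45 to 5.48), and Fcgr4 was 42.4 CPM in LPS+RT and 62.5 CPM in LPS (1.47-fold lower, 1.23 to 1.77). Without it Fcgr4 of neutrophils was 62.5 CPM in LPS against 61.5 CPM in PBS (ratio 1.02, 0.699 to 1.54). Fcgr1 of neutrophils was then 8.97 CPM in LPS against 0 UMIs in PBS, where 3 counts would be 6.58 CPM. That level was less than 1.5-fold above the limit, so Fcgr1 would not have been counted as higher in LPS than in PBS. Among the other clusters Fcgr4 was 1.78-fold lower (1.26 to 2.59) in LPS+RT in the Ccl3 cluster and 2.10-fold lower (1.04 to 4.80) in a cluster of cells with few UMIs. It was 22.7 CPM in LPS+RT and 27.0 CPM in LPS in a cluster led by Rab15 and Enthd1, and 98.4 CPM in LPS+RT and 87.3 CPM in LPS in the Retnlg cluster. In a cluster led by Il1r2 and Cxcr2 Fcgr4 was 35.5 CPM in LPS+RT and 54.6 CPM in LPS (1.54-fold lower, 0.846 to 3.03). Fcgr2b went the other way in the Ccl3 cluster, 1.67-fold higher (1.47 to 1.88) in LPS+RT, and in the cluster led by Il1r2 and Cxcr2, 1.73-fold higher (1.15 to 2.57).

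**Figure D3:**
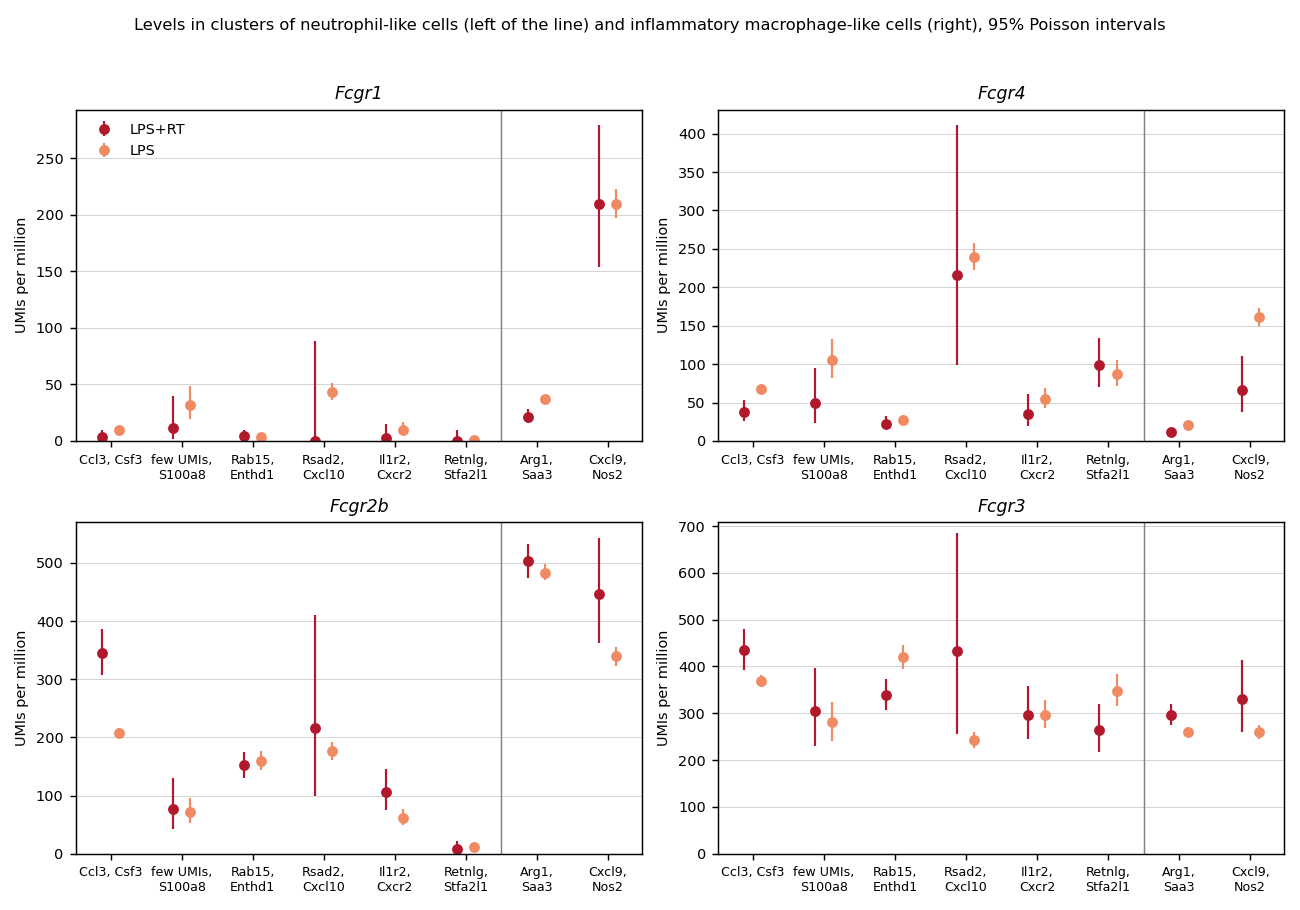
CPM of the members in neutrophil clusters and in the inflammatory macrophage clusters, LPS+RT left of LPS, with exact Poisson 95% intervals. In LPS, Fcgr1 and Fcgr4 were highest in the Rsad2 cluster of neutrophils (9 cells in LPS+RT, 490 in LPS) and in the Cxcl9 and Nos2 cluster of macrophages (10 cells in LPS+RT, 237 in LPS).

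Inflammatory macrophages were also a mix when they were split at the finer resolution of 3. A cluster led by Arg1 and Saa3 held 100 cells in LPS+RT and 319 in LPS, and a cluster led by Cxcl9 and Nos2 held 10 in LPS+RT and 237 in LPS. In the Arg1 cluster Fcgr1 was 21.4 CPM (15.9 to 28.3) in LPS+RT and 37.0 CPM (33.3 to 41.0) in LPS, 1.73-fold lower (1.28 to 2.37), and Fcgr4 was 12.0 CPM (7.98 to 17.4) in LPS+RT and 20.3 CPM (17.6 to 23.3) in LPS, 1.69-fold lower (1.13 to 2.61). Both genes were lower in LPS+RT there by less than over the whole class. In the Cxcl9 cluster Fcgr1 had 47 UMIs in LPS+RT (154 to 279 CPM) and 997 UMIs in LPS (197 to 223 CPM), with overlapping intervals, and Fcgr4 was 66.9 CPM (37.5 to 110) in LPS+RT and 161 CPM (150 to 173) in LPS. Fcgr2b in the Arg1 cluster was 503 CPM in LPS+RT and 484 CPM in LPS.

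Dendritic cells, which take up antigen for presentation to T cells, had 87 cells in LPS+RT, 120 in LPS, 52 in PBS+RT and 91 in PBS. Their Fcgr2b was 166 CPM in LPS+RT, 62.5 in LPS, 190 in PBS+RT and 146 in PBS, with the LPS library low. The ratio of LPS+RT to LPS was 2.66 (2.14 to 3.31) for Fcgr2b and 2.16 (1.64 to 2.86) for Fcgr3, where 7.1% of all genes of the class were higher by the margin. The mix differed here too: cells with markers of conventional type 2 dendritic cells numbered 49 in LPS+RT, 42 in LPS, 43 in PBS+RT and 76 in PBS, and migratory ones 38 in LPS+RT, 75 in LPS, 8 in PBS+RT and 14 in PBS. Among the type 2 cells Fcgr2b was 223 CPM (194 to 256) in LPS+RT, 93.6 CPM (74.1 to 117) in LPS, 219 CPM (189 to 251) in PBS+RT and 170 CPM (149 to 192) in PBS. When every cell of the library was named by its own marker score, the ratio of LPS+RT to LPS was 1.21 for Fcgr2b and 1.05 for Fcgr3.

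The PBS+RT library was set against the PBS library to ask what irradiation without LPS was accompanied by. Of 7 pairs with at least 100 cells none was at least 1.5-fold higher in PBS+RT, against 17.5% of all gene and class pairs, and 2 were lower, against 12.4%. Both were Fcer1g, in classes where 11.5% (alveolar macrophages) and 12.8% (NK cells) of all genes were lower. In alveolar macrophages it was 559 CPM (547 to 570) in PBS+RT and 899 CPM (884 to 914) in PBS, 1.61-fold lower (1.57 to 1.65), and the ratio was 0.633 within the Fabp1 cluster, which held most cells of both libraries. In NK cells it was 1284 CPM in PBS+RT and 1951 CPM in PBS, 1.52-fold lower (1.42 to 1.63), and the ratio was 0.668 with doublets kept and 0.667 by own marker score, just within the margin. The thinned share of alveolar macrophages with an Fcer1g UMI was 64.0% in PBS+RT and 74.2% in PBS, and that of T cells 2.94% in PBS+RT and 4.5% in PBS. In the same alveolar macrophages Fcgr4 was 94.9 CPM in PBS+RT and 72.5 CPM in PBS (1.31-fold higher, 1.21 to 1.42), while Fcgr1, Fcgr3 and Fcgr2b had ratios of 0.846, 0.821 and 0.834.

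With at least 40 cells, 1 of 28 pairs was higher in PBS+RT, against 18.5% of all pairs, and 7 were lower, against 15.3%. Fcer1g was also lower in nonclassical monocytes (1.83-fold, 1.70 to 1.97) and in interstitial macrophages (1.53-fold, 1.37 to 1.72). Fcgr1 was lower in classical monocytes (1.56-fold, 1.12 to 2.19) and interstitial macrophages (1.65-fold, 1.06 to 2.65), and its interval in nonclassical monocytes reached past equality (2.21-fold, 0.918 to 6.10). By own marker score the ratios of interstitial Fcer1g (0.668) and classical monocyte Fcgr1 (0.670) were within the margin, as was that of classical monocyte Fcgr1 with equal weight per cell (0.701), while interstitial Fcgr1 was 3.74-fold lower with equal weight and nonclassical monocyte Fcgr1 4.76-fold lower by own marker score. The pair that was higher was Fcgr2b in nonclassical monocytes, 117 CPM in PBS+RT and 60.3 CPM in PBS (1.94-fold higher, 1.40 to 2.69). Fcer1g in T cells was 27.7 CPM in PBS+RT and 54.7 CPM in PBS, so the lower level in PBS+RT was also seen in a class outside the myeloid cells, and the part of RNA from other cells in it was not tested.

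The share of Fcgr2b among the UMIs of the 4 receptor genes sets the inhibitory receptor beside the activating ones within a class, and is read only between libraries and classes. In neutrophils it was 30.3% (28.2 to 32.5) in LPS+RT and 27.0% (26.2 to 27.8) in LPS, against 6.88% (3.90 to 11.1) in PBS+RT and 11.7% (7.08 to 17.8) in PBS, with intervals given as exact Clopper-Pearson 95% intervals. Over the whole class both LPS-treated libraries were apart from both saline libraries, but the mix of clusters differed. In the Retnlg cluster Fcgr2b had 3 UMIs in LPS+RT, 14 in LPS, 4 in PBS+RT and 3 in PBS. Fcgr3 had 105, 419, 114 and 51 UMIs there in the same order, and Fcgr2b was the smaller count in each library. The part of the mix in the class-wide shares was not tested. In inflammatory macrophages the Fcgr2b share was 58.7% (56.6 to 60.8) in LPS+RT and 51.1% (50.2 to 52.0) in LPS. The mix differed here too, with 10 cells of the Cxcl9 cluster in LPS+RT and 237 in LPS. In the Arg1 cluster Fcgr2b had 1173 UMIs in LPS+RT and 4742 in LPS. Fcgr3 had 693 and 2544 there, Fcgr1 50 and 363, and Fcgr4 28 and 199. The part of the mix in the share was not tested. The share stayed between 34.5% and 37.1% in interstitial macrophages and between 16.1% and 20.6% in alveolar macrophages in all 4 libraries. Nonclassical monocytes had 11.5% in LPS+RT, 9.92% in LPS, 22.7% (18.7 to 27.2) in PBS+RT and 10.4% in PBS. In B cells Fcgr2b made up 85.2% in LPS+RT, 87.8% in LPS, 96.9% in PBS+RT and 93.9% in PBS.

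**Figure D4:**
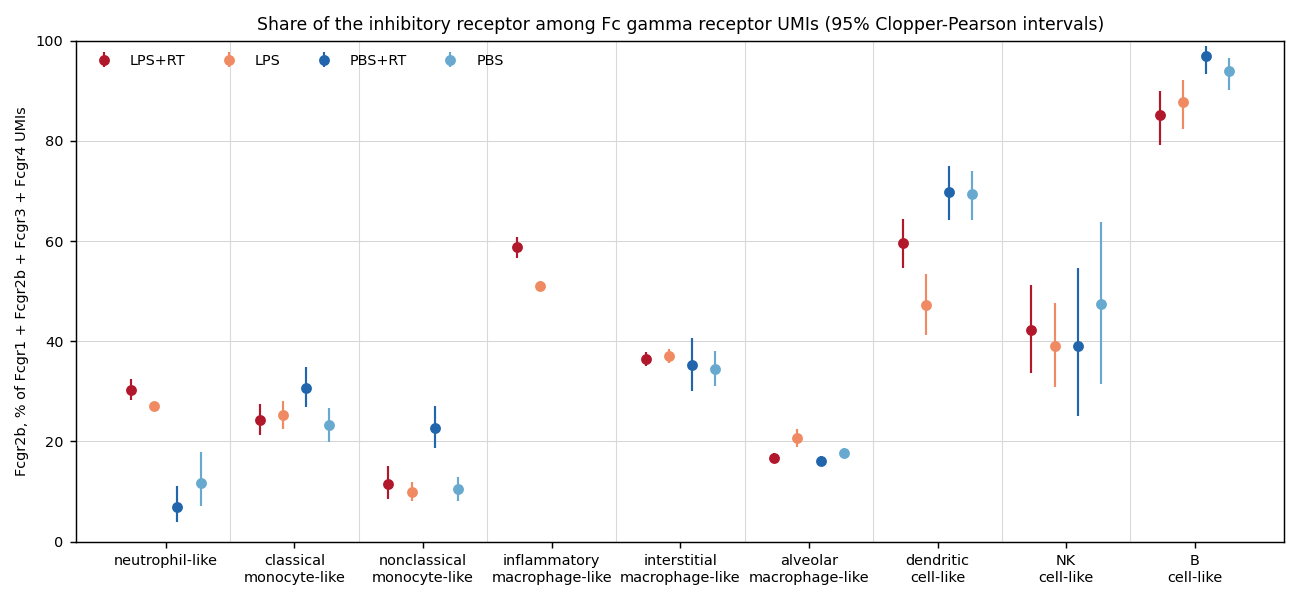
Percent of Fcgr1, Fcgr3, Fcgr4 and Fcgr2b UMIs that came from Fcgr2b, by class, with 1 point per library in the order LPS+RT, LPS, PBS+RT and PBS and exact Clopper-Pearson 95% intervals. Neutrophils, with all their clusters together, had 30.3% in LPS+RT and 27.0% in LPS, against 6.88% in PBS+RT and 11.7% in PBS. Interstitial macrophages stayed between 34.5% and 37.1%.

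Genes that act on or below the receptors were described from lists chosen with earlier results of these data known. Of 7 transcription factors and other regulators known to act on Fc gamma receptor genes, all 7 were measured in inflammatory macrophages, and 4 (Stat3, Irf1, Irf8 and Socs1, a suppressor of cytokine signalling) were at least 1.5-fold lower in LPS+RT than in LPS and none was higher, with a median log2 ratio of -0.83, against -0.01 over all 7868 genes, of which 11.4% were lower. Irf1, which binds interferon-stimulated response elements, was 47.6 CPM in LPS+RT and 186 CPM in LPS (3.91-fold lower, 3.26 to 4.74). Stat3 was 118 CPM in LPS+RT and 225 CPM in LPS (1.91-fold lower, 1.69 to 2.15). In neutrophils 1 of 7, Irf1, was lower and none higher, with a median log2 ratio of 0.01, against 0.03 over all genes, of which 9.45% were lower, so the count of 1 was near that share. Irf1 was 106 CPM in LPS+RT and 333 CPM in LPS there (3.15-fold lower, 2.83 to 3.52). In the Arg1 cluster of macrophages Irf1 was 35.2 CPM in LPS+RT and 102 CPM in LPS. In the Cxcl9 cluster Irf1 was 170 CPM in LPS+RT and 359 CPM in LPS (2.12-fold lower, 1.54 to 3.00), where Fcgr1 was 209.8 CPM in LPS+RT and 209.5 CPM in LPS. Whether Irf1 bears on the receptor genes was not tested.

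Of the 17 activating signalling genes, 16 were measured in inflammatory macrophages, and 3 (Vav1, Lcp2 and Malt1) were lower in LPS+RT than in LPS and none higher. Examples were Lcp2, an adaptor below Syk (114 CPM in LPS+RT and 198 CPM in LPS), and Vav1 (77.8 CPM in LPS+RT and 125 CPM in LPS). Of the 8 inhibitory signalling genes 3 (Inpp5d, Dok1 and Cblb) were lower and none higher. Inpp5d, which encodes the phosphatase recruited by the inhibitory receptor, was 98.8 CPM in LPS+RT and 161 CPM in LPS (1.63-fold lower, 1.43 to 1.87). Of 12 other inhibitory receptors 3 (Cd22, Cd300a and Ceacam1) were higher and 5 (Cd72, Clec12a, Siglece, Lair1 and Pilra) lower, for example Cd300a at 85.7 CPM in LPS+RT and 41.9 CPM in LPS, and Clec12a at 47.6 CPM in LPS+RT and 109 CPM in LPS. Of 6 measured receptors and adaptors of the gamma-chain group 2 (Il3ra and Hcst) were higher and 1 (Clec4e) lower. Of 11 other Fc receptor genes only Trim21, the cytosolic antibody receptor, was measured there, and it was lower. Over all genes in this class 506 of 7868 were higher and 898 lower. These values are of the whole class, whose mix differed between the libraries. The Arg1 and Cxcl9 clusters held 100 and 10 cells in LPS+RT and 319 and 237 in LPS. The part of that mix in these differences was not tested.

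In neutrophils of LPS+RT against LPS, 16 activating signalling genes were measured, of which 1 (Lat2) was higher and 2 (Lcp2 and Was) lower. The Was gene, which encodes a regulator of actin assembly, had 54.5 CPM in LPS+RT and 95 CPM in LPS, and Lcp2 had 191 CPM in LPS+RT and 320 CPM in LPS. Of 6 inhibitory signalling genes 1 was higher and none lower, the ubiquitin ligase gene Cblb, at 33.4 CPM in LPS+RT and 17.8 CPM in LPS. None of 10 inhibitory receptors was higher and 3 (Lilrb4a, Lair1 and Pilra) were lower, with Lilrb4a the most abundant of them (610 CPM in LPS+RT and 970 CPM in LPS). None of the 5 gamma-chain receptors and adaptors differed by 1.5-fold. Over all 7558 genes of this class 814 were higher and 714 lower. The mix of neutrophil clusters differed between these libraries, and its part in these differences was not tested.

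In neutrophils of LPS against PBS, 3 of 5 measured receptors and adaptors of the gamma-chain group (Clec4e, Clec4d and Clec4n) were higher and 1 (Hcst) lower. Clec4n, which encodes Dectin-2 and signals through the gamma chain, was 815 CPM in LPS against 198 CPM in PBS (4.12-fold higher, 3.35 to 5.13), and Clec4e, which encodes Mincle, was 1496 CPM in LPS against 656 CPM in PBS (2.28-fold higher, 2.03 to 2.56). Of 15 activating signalling genes 7 were higher and 2 (Pik3cd and Pik3r1) lower, against 41.1% higher and 14.8% lower among all genes. Of 5 inhibitory signalling genes measured in the neutrophils 1 (Dok1) was higher and none lower, and of 6 transcription factors and regulators 3 (Stat6, Irf1 and Socs1) were higher and none lower. In alveolar macrophages Fcgrt, the neonatal Fc receptor that recycles immunoglobulin G, was 39.1 CPM in LPS against 214 CPM in PBS (5.48-fold lower, 4.84 to 6.23). Clec4e in alveolar macrophages was 367 CPM in LPS against 26.8 CPM in PBS (13.7-fold higher, 12.3 to 15.2). The mix of clusters within neutrophils and within alveolar macrophages differed between LPS and PBS. Its part in these differences was not tested.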

How the data were processed

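The deposited tables hold whole-number UMI counts per gene and barcode. Per the file headers they were written by Cell Ranger 7.0.1, and the submitters' processing notes list R 4.2.2, Seurat 4.3.0 and mm10. Barcodes were kept from 500 UMIs and 200 genes upwards with at most 10% mitochondrial UMIs. Doublets were called against simulated ones with an expected rate of 8%, and 137 to 307 per library were removed. Cells were clustered without the 5 members (2000 variable genes, 30 components, 15 neighbours, Leiden resolution 1.5, alternative 3), which gave 58 clusters, 9 of them unnamed. A cluster was named from at least 3 listed markers, each in 10% of its cells and 2-fold higher than elsewhere. These thresholds were set, and the dendritic classes merged, after the clusters had been seen. The submitters' own annotation and the barcode sequences were not used here, so cells shared between libraries were not analysed here.

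UMIs were summed per class and library. Levels carry exact Poisson intervals, shares exact Clopper-Pearson intervals and ratios exact conditional binomial intervals, all at 95%; with 1 library per group there was no test. Background shares cover genes that reached 10 CPM with 20 UMIs in whichever library was higher. For shares of cells with a UMI, cells were thinned to 2000 UMIs. Genes named by likeness were the 3 with the highest correlation per member, from 50 CPM in any pool; related genes named were up to 3 per list with the largest absolute log2 ratio, from 20 CPM. The members and lists were chosen with earlier results of these data known. A few genes were taken out of the lists of related genes and are not reported here. The 40-cell minimum, the rule of 10% of the highest class and the values within or without clusters were chosen after seeing the data. Alternatives were 1000 UMIs per barcode, at most 5% mitochondrial UMIs, doublets kept, resolution 3, naming each cell by its own marker score, equal weight per cell, median-of-ratios scaling, leaving out the largest cluster, and thinning to 1000 UMIs. The calculations were tested on simulated data. Motifs were searched in RefSeq promoters of GRCm38.p6. The tools were Python 3.11.15 with scikit-learn 1.9.0, leidenalg 0.10.2, scipy 1.17.1, numpy 2.4.6, pandas 2.3.3 and matplotlib 3.10.9.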

Additional observations from a re-analysis of the deposited data

Results flagged for a closer look

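For 4 pairs of member and class, the ratio with irradiation pointed one way after LPS and the other way after saline, with each interval clear of equality. Fcgr3 of interstitial macrophages had a log2 ratio of 0.30 for LPS+RT over LPS and of -0.32 for PBS+RT over PBS. Fcer1g had log2 ratios of 0.11 for LPS+RT over LPS and -0.62 for PBS+RT over PBS in interstitial macrophages, 0.42 and -0.19 in dendritic cells, and 0.36 and -0.60 in NK cells. With each cell named by its own marker score, Fcer1g of dendritic cells had log2 ratios of -0.50 for LPS+RT over LPS and -1.11 for PBS+RT over PBS, which point the same way, and Fcer1g of interstitial macrophages had -0.05 for LPS+RT over LPS. The difference between the pairs of libraries was not tested, since each group is 1 library.

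Cells of the 9 unnamed clusters, which entered no comparison, held more of 4 members in the LPS library than in the PBS library. Fcgr3 was 25.5 CPM in LPS+RT, 80.3 in LPS, 6.75 in PBS+RT and 14.9 in PBS. Fcgr4 was 6.59, 15.3, 1.87 and 3.79 CPM, Fcgr2b 14.6, 40.4, 8.25 and 6.73 CPM, and Fcer1g 197, 561, 64.5 and 115 CPM in the same libraries. An unnamed cluster with 92 of its 101 cells in LPS held markers of both neutrophils and endothelial cells, and supplied 213 of the 278 Fcgr3 UMIs and 1268 of the 1942 Fcer1g UMIs of the unnamed LPS cells. Without it, an alternative chosen after the data had been seen, Fcgr3 was 35.0 CPM in LPS against 14.2 CPM in PBS, Fcer1g 363 CPM in LPS against 114 CPM in PBS, and Fcgr2b 25.3 CPM in LPS against 6.78 CPM in PBS. Fcgr4 was then 6.46 CPM (3.34 to 11.3) in LPS against 3.18 CPM (1.78 to 5.24) in PBS, with overlapping intervals.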

How the results depend on the processing

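Most ratios of members stayed within their intervals under the other settings: 112 of 112 from 1000 UMIs per barcode, 121 of 121 with doublets kept, 120 of 121 at resolution 3, 104 of 112 with at most 5% mitochondrial UMIs, 103 of 121 with equal weight per cell, 95 of 121 with median-of-ratios scaling and 11 of 18 without the largest cluster. Naming each cell by its own marker score kept 84 of 121 there. That setting turned the sign of 15 ratios, 5 of them in dendritic cells, of which 1 had been past 1.5-fold, dendritic Fcgr2b in LPS against PBS (log2 0.11). The other settings over all classes turned 1 to 8 ratios, none of them past 1.5-fold. Within neutrophil clusters of LPS+RT against LPS, Fcgr1 in the Rab15 cluster (log2 0.17) and Fcgr4 in the Retnlg cluster (log2 0.17) reversed. The counts of pairs at least 1.5-fold higher were, for LPS against PBS, 1 at resolution 3, 5 by own marker score and 5 from 40 cells, in place of 0. For LPS+RT against PBS+RT they were 1 from 1000 UMIs per barcode (96 PBS+RT neutrophils then remained), 8 by own marker score and 9 from 40 cells, in place of 4. For LPS+RT against LPS they were 1 by own marker score and 2 from 40 cells, and for PBS+RT against PBS 1 from 40 cells, in place of 0. The counts of lower pairs were 0 for LPS against PBS with at most 5% mitochondrial UMIs, in place of 2. For LPS+RT against PBS+RT they were 2 by own marker score, by equal weight and from 40 cells, and 0 without the largest cluster, in place of 1. For LPS+RT against LPS they were 8 by own marker score and 2 without the largest cluster, in place of 5, and for PBS+RT against PBS 1 with doublets kept and 7 from 40 cells, in place of 2. Settings from 40 cells compared more pairs. Leaving out the largest cluster compared fewer, because a class of 1 cluster or with too few cells left dropped out. Inflammatory macrophages and platelets, each of 1 cluster, dropped out, as did alveolar macrophages of LPS+RT against PBS+RT, with 20 PBS+RT cells left. Lower pairs in those classes could therefore not be counted there. The cause of the other changes was not tested. With equal weight per cell, interstitial Fcgr1 had a ratio of 2.70 for LPS+RT over PBS+RT and of 0.268 for PBS+RT over PBS. No paired analysis was possible because each group is 1 library. The 78 PBS and 115 PBS+RT neutrophils and the 42 PBS+RT interstitial macrophages limit the precision. In shares of cells with a UMI, thinning to 1000 UMIs moved 91 of 125 values beyond their intervals.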
